A study of Mus musculus with 35 samples.

Results

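The transcripts of 8 chemokine ligands, Ccl2, Ccl5, Ccl7, Cxcl1, Cxcl5, Cxcl10, Cxcl12 and Cx3cl1, were followed through all 35 RNA-seq libraries of immortalized mouse embryonic fibroblasts (MEFs). They were taken by symbol, with no threshold on their values, from the 24421 genes that each count table lists. All 8 were detected in every library and passed the filter on low counts. The parental cells carried 1 null and 1 floxed allele of Nelfb, the floxed one being the target of Cre in the Cre populations and in all clones. Nelfb encodes a subunit of the negative elongation factor NELF that holds RNA polymerase II near promoters. 20 libraries came from populations that stably carried an empty lentiviral vector (EV), WT NELFB, MT194, MT486 or the double mutant DMT, collected 7 days after Ad-Cre-GFP or Ad-GFP adenovirus, with 2 libraries per group. 15 libraries came from single clones isolated after Ad-Cre, 3 per construct. The WT, MT194 and MT486 clones carried the lentiviral vector, and the WT(N48) and Δ-C60 clones the pBabe vector (labelled pBabe-WT-ATG-NELFB and pBabe-delta-C60). Alanine-substitution mutant MT194 does not bind NELFA and NELFC, and MT486 and the C-terminal truncation Δ-C60 do not bind NELFE. The populations held 17969149 to 29080007 reads on genes and the clones 18413284 to 27816723.

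Chemokines are small secreted proteins that steer leukocytes through G protein-coupled receptors. Fibroblasts make them at rest and in much larger amounts under inflammatory cytokines, largely through NF-kappaB and, for some ligands, interferon-regulated factors. Cxcl1 and Cxcl5 act on Cxcr2 of neutrophils, Cxcl10 on Cxcr3 of T and NK cells, and Cxcl12 on Cxcr4 and Ackr3. Ccl2 and Ccl7 draw monocytes through Ccr2, and Ccl5 acts on Ccr1 and Ccr3, among others. Cx3cl1 is made as a membrane-bound protein that proteases can shed, and it binds Cx3cr1.

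Nelfb itself was read first, as a check of the labels. It stood at 7.97 and 5.46 CPM (TMM-normalised counts, scaled to library size) in EV-Cre against 46.1 and 39.5 in EV-GFP, a log2 fold change of -2.67 ± 0.22 (SE, edgeR adjusted p = 2.53e-05). In the populations with a construct it lay between 60.5 and 208 CPM, and these reads include the transcripts of the construct. Among the clones, Nelfb stood at 10.3 and 15.5 CPM in the WT-labelled clones 1 and 3, against 109 in WT clone 2 and 56.3 to 247 in the other clones. These libraries went against their label, and the Cxcl12 comparisons with the WT clones are given with and without them. MT486 clones 1 and 2 were more alike than other clones (chi-square per degree of freedom of 4.85, against at least 30.5 between all other clone pairs of a group), yet differed by more than sampling noise. That does not settle whether they are separate clones, and the tests of MT486 clones count them as such.

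The cells carried fibroblast transcripts in every library. The 15 fibroblast markers summed to 24438 to 57551 CPM in the populations and 8720 to 30381 CPM in the clones, led by Fn1 (fibronectin), while Thy1 stayed under 1 CPM throughout, as did Lum in the clones. The 15 leukocyte markers summed to 192 to 450 CPM in the populations, of which Cd14, a lipopolysaccharide co-receptor, made up 184 to 439. Tyrobp was at 0 in all populations, and Ptprc, Adgre1, Itgam, Cd3e, Laptm5, Fcer1g and Spi1 stayed under 1 CPM. The 10 endothelial markers summed to at most 2.73 CPM and the 10 epithelial markers to at most 5.92 CPM in the populations, with Cldn5, Robo4 and Cldn3 at 0. In the clones the leukocyte markers summed to 16.4 to 123 CPM with Cd3e at 0, and the endothelial markers to at most 5.38 CPM with Emcn at 0. The epithelial sum reached 102 CPM in Δ-C60 clone 3, nearly all of it Krt19, with Cldn3 at 0.

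Per length of exon, Cxcl5 was by mean the most abundant transcript of the populations, though not of the clones. Its mean over the 20 populations, 2279 CPM per kb, ranked 1 among 23334 genes with a GENCODE length. Cxcl12 followed at rank 8 with 1191 CPM per kb and Cxcl1 at rank 27 with 648. The other 5 were far lower. Ccl2 and Ccl7 had means of 60.05 and 48.9 CPM per kb, Ccl5 of 29.5, Cx3cl1 of 26.5 and Cxcl10 of 15.7, the last at rank 3097. In the clones, normalised separately, Cxcl5 had a mean of 598 CPM per kb (rank 17), Cxcl1 of 202, Cxcl12 of 185, Ccl2 of 166 and Ccl7 of 138. Exon length was counted over all annotated transcripts, 8176 bases for Cxcl12 and 801 for Ccl7, so that a level per kb is understated where short isoforms dominate.

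**Figure D1:**
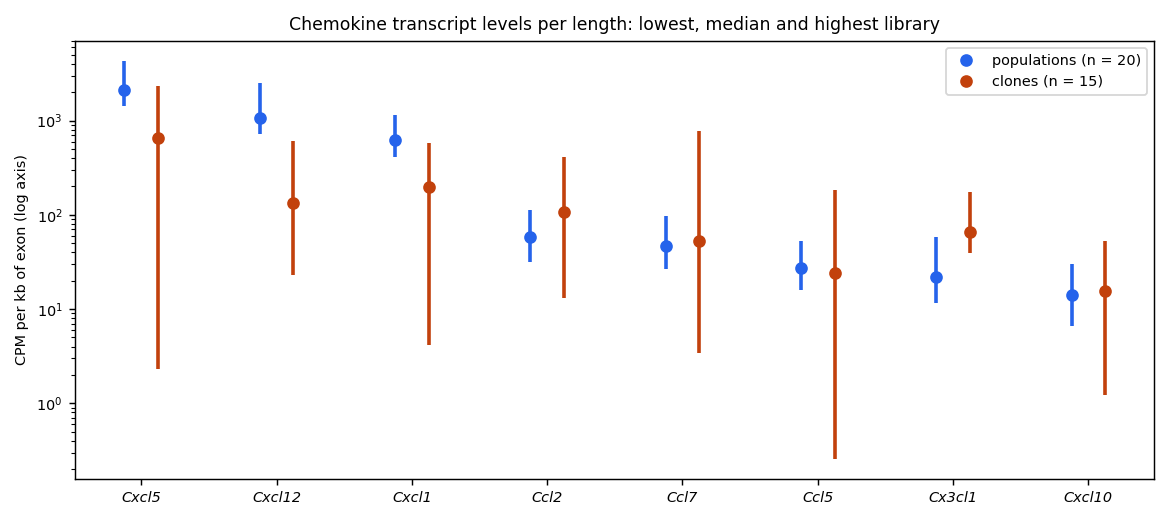
Level of each chemokine transcript in CPM per kb of exon (log axis); points are medians and bars run from the lowest to the highest library, in 20 populations (blue) and 15 clones (orange). Cxcl5 reached 4331 CPM per kb in the populations, and in the clones it ran from 2.33 to 2351.

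In the populations each ligand varied between 2.76-fold (Cxcl1) and 5.04-fold (Cx3cl1) from the lowest to the highest library. For each ligand but Cxcl10 the replicates differed in 1 direction in every group. Cxcl1, Cxcl5, Cxcl12, Ccl2, Ccl7 and Cx3cl1 were higher in replicate 2 than in replicate 1 in 10 of 10 groups, with median ratios of 1.54, 1.503, 1.41, 1.497, 1.35 and 1.61. Ccl5 ran the other way and was lower in replicate 2 in 10 of 10 groups (median ratio 0.758). Cxcl10 was higher in replicate 2 in 7 of 10 groups, with ratios of 0.857 to 1.24. How many of all genes kept 1 direction in every group was not counted. The summed fibroblast markers were also higher in replicate 2 of every group, for example 27921 and 43337 CPM in EV-Cre, and their part in these ratios was not tested. The share of reads on no gene was higher in replicate 2 of every group except DMT-Cre (15.8% and 15.6%). In EV-Cre it was 15.5% and 18.8%, and its part was not tested. Replicate numbers paired the libraries across groups, and values fitted with that number as a block are given where they change a call.

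**Figure D2:**
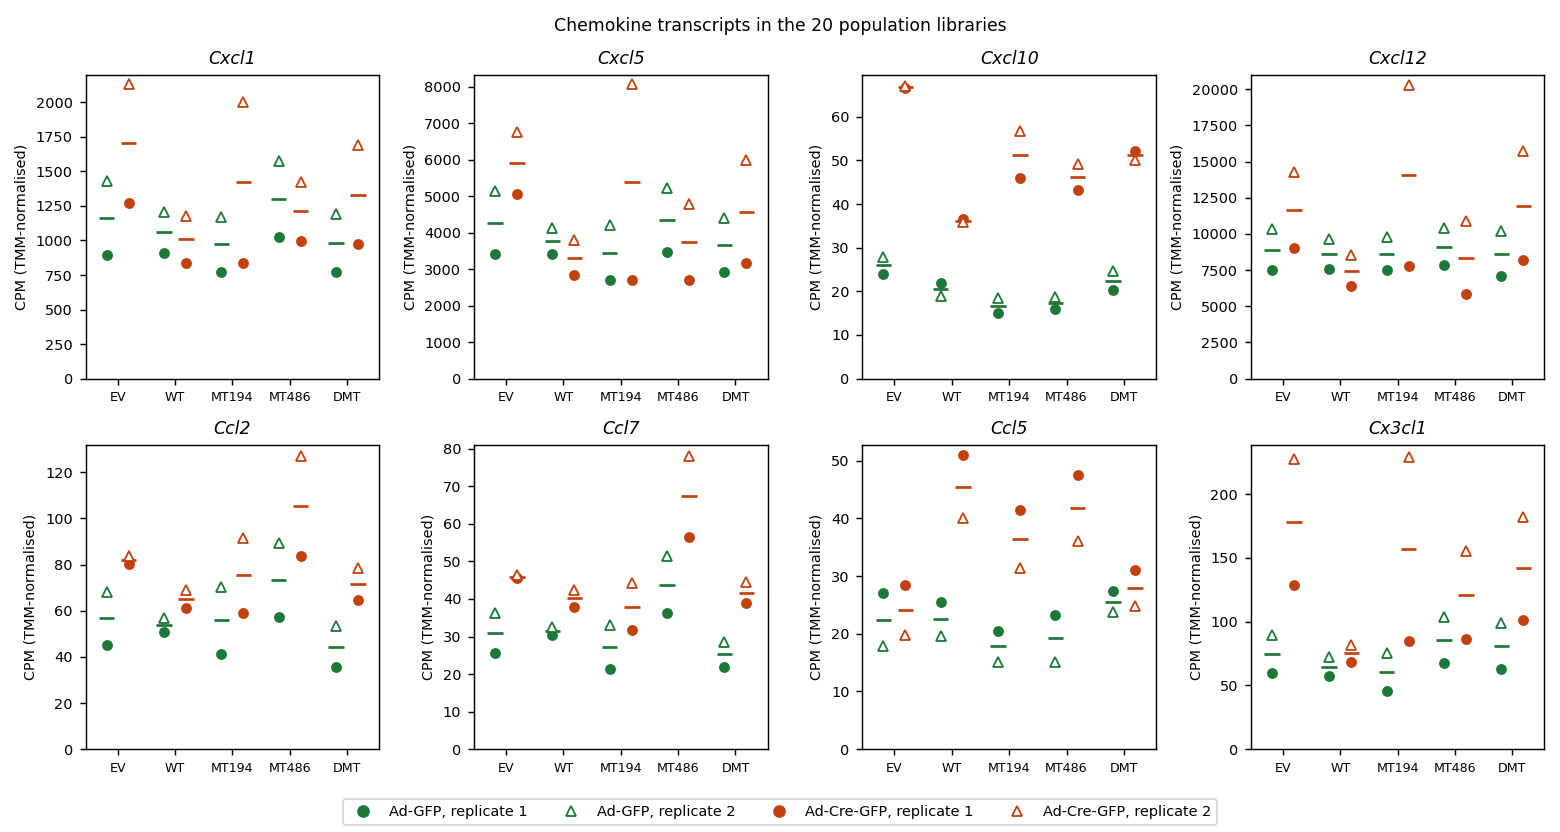
CPM of the 8 chemokine transcripts in each of the 20 population libraries, by construct and virus; filled circles are replicate 1, open triangles replicate 2 and bars group means (n = 2). Cxcl10 was higher in every Ad-Cre-GFP library (orange) than in any Ad-GFP library (green), with the lowest Cre value at 35.8 CPM and the highest GFP value at 27.8 CPM.

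The first comparison asked how the ligands differed between Ad-Cre-GFP and Ad-GFP, in cells with the empty vector and in cells with each construct. Cxcl10 rose in EV and with each of the mutants MT194, MT486 and DMT, and in the edgeR fit without the replicate block no other ligand passed an adjusted p of 0.05 with an absolute log2 fold change over 1. DESeq2 added Ccl5 in MT194 and MT486, and the block added Ccl5 and Cx3cl1, as described with those genes. In EV, 1 of 8 ligands was called, while 6.52% of the 13805 genes tested were called. The count was again 1 of 8 in MT194 (2.48% of genes), in MT486 (1.46%) and in DMT (5.31%). In WT, 0 of 8 were called by edgeR (0.0217% of genes) and 0 by DESeq2. There 2 of 8 had an unadjusted edgeR p under 0.05, as had 859 of the 13805 genes tested. The median log2 fold change of the 8 ligands was 0.54 in EV, 0.25 in WT, 0.67 in MT194, 0.51 in MT486 and 0.58 in DMT, while the median of all genes tested lay within 0.02 of 0 in each. All 8 fitted values were above 0 in EV, MT194 and DMT, and 5 of 8 were in WT and in MT486.

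Cxcl10 lies at chr5:92346638-92348889 (GRCm38, minus strand). The 300 bases around its start in RefSeq (GRCm38.p6, chr5:92348840-92349139, minus strand, 250 bases before the start and 50 from it on) are shown because Cxcl10 was the ligand called, with the window of Cx3cl1 (chr8:94771930-94772229, plus strand) beside it because that gene was called once the replicate was blocked. Capitals mark matches, on either strand, to the kappaB motif, to GAAANNGAAA (the interferon-stimulated response element) and to TGANTCA (AP-1).
Cxcl10: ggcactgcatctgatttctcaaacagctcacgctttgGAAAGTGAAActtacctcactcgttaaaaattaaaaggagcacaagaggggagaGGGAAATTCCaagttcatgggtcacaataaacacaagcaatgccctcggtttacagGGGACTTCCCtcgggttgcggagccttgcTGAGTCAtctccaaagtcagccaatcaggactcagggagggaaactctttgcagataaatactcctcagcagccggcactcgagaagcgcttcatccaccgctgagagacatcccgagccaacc
Cx3cl1: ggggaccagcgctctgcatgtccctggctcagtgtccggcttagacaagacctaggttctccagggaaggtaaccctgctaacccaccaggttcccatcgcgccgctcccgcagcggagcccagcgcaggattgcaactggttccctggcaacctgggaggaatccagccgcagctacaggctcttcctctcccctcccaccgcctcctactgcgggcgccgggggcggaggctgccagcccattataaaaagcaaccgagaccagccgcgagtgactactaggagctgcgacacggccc
The Cxcl10 window held a GAAANNGAAA match 213 to 204 bases before the start, kappaB matches at 159 to 150 and 103 to 94 bases before it, and a TGANTCA match at 74 to 68. None of these letters matched in the Cx3cl1 window or in that of Cxcl12, and the Cxcl1 window held overlapping kappaB matches on both strands 71 to 61 bases before the start. Of 32851 promoter windows of this length, 4.51% held a kappaB match, 3.44% GAAANNGAAA and 7.81% TGANTCA. 4 of the 8 ligands had a window in that table. A match is a run of letters, and binding was not measured here.

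In EV, Cxcl10 stood at 24.0 and 27.8 CPM with Ad-GFP and at 66.6 and 67.0 CPM with Ad-Cre-GFP. The groups did not overlap, and the log2 fold change was 1.37 ± 0.16 (SE, n = 2 per group, edgeR adjusted p = 0.000197). In MT194 it went from 14.99 and 18.4 to 45.9 and 56.7 CPM, a log2 fold change of 1.62 ± 0.16 (adjusted p = 0.000272). In MT486 it went from 15.9 and 18.8 to 43.1 and 49.2 CPM (1.41 ± 0.16, adjusted p = 0.000982). In DMT it went from 20.3 and 24.7 to 52.2 and 50.2 CPM (1.19 ± 0.16, adjusted p = 0.000533). In each of these constructs both Cre libraries lay above both GFP libraries. Groups of 2 libraries can be apart without passing a test, as Ccl2 was in WT (edgeR unadjusted p = 0.413). The share of all genes whose groups were apart was not counted, here or for the ligands and clones below. Fitted on the 4 libraries of a construct alone, Cxcl10 kept its log2 value of 1.62 in MT194 and 1.41 in MT486 but not its call (adjusted p of 0.130 and 0.117), in fits that called 0% and 0.0381% of all genes. WT had the smallest difference, from 22.0 and 18.9 to 36.5 and 35.8 CPM, a log2 fold change of 0.82 ± 0.16 (adjusted p = 0.165, and 0.00124 with the replicate block, under the fold threshold in both). Within a replicate, the Cre to GFP ratio of Cxcl10 was above 1 in 10 of 10 pairs, from 1.66 in WT replicate 1 to 3.07 in MT194 replicate 2. The share of all genes with ratios above 1 in 10 of 10 pairs was not counted.

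By group means, Cxcl10 ran from 66.8 CPM in EV-Cre through MT194-Cre (51.3), DMT-Cre (51.2), MT486-Cre (46.1) and WT-Cre (36.1) to 25.9 in EV-GFP, 22.5 in DMT-GFP, 20.4 in WT-GFP, 17.4 in MT486-GFP and 16.7 in MT194-GFP. Of the 9 neighbouring pairs in that order, 4 overlapped. The values of MT194-Cre and DMT-Cre overlapped, as did those of EV-GFP with DMT-GFP, DMT-GFP with WT-GFP and MT486-GFP with MT194-GFP. For the other ligands 8 or 9 of the 9 neighbouring pairs overlapped.

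**Figure D3:**
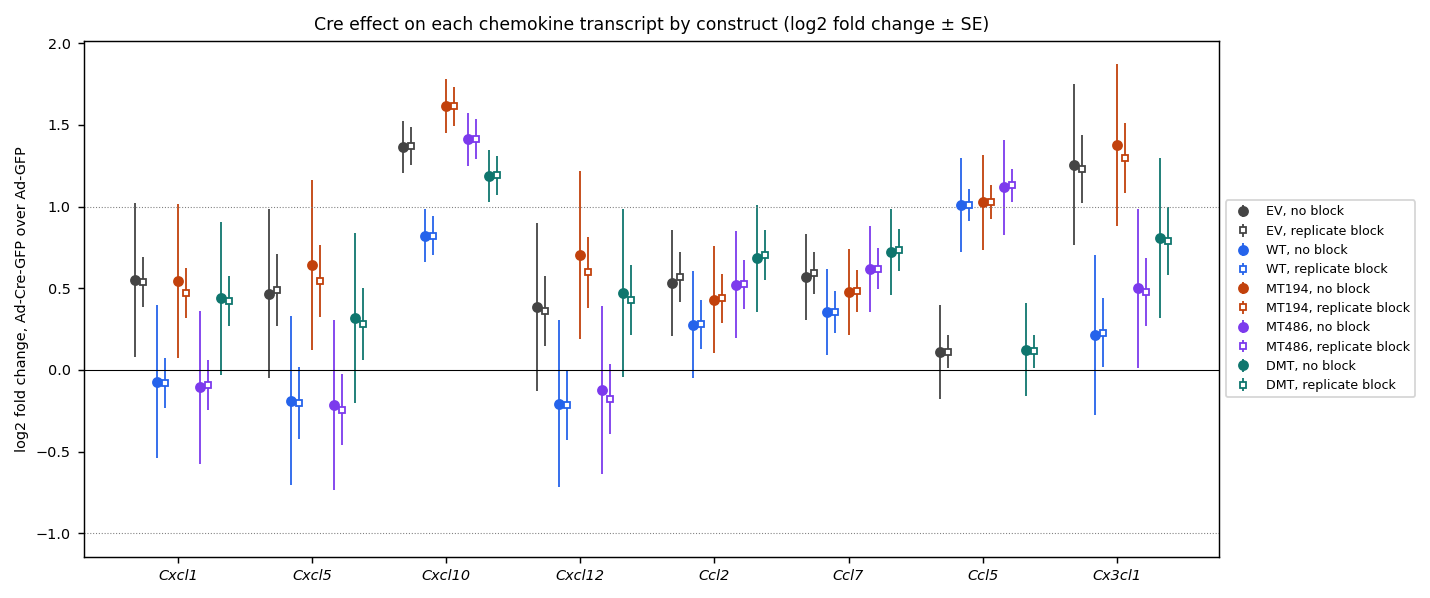
Fitted log2 fold change of Ad-Cre-GFP over Ad-GFP for each ligand (x axis) by construct (colour), ± SE; filled circles are the fit without the replicate block and open squares the fit with it, and dotted lines mark the fold threshold of 1. Cxcl10 lay above 1 in EV, MT194, MT486 and DMT and at 0.82 in WT, and Ccl5 lay near 0.11 in EV and DMT and above 1 in WT, MT194 and MT486.

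Ccl5 (chr11:83525778-83530518, minus strand) showed another order of constructs. In EV it stood at 27.0 and 17.8 CPM with Ad-GFP and at 28.5 and 19.8 with Ad-Cre-GFP, and in DMT at 27.4 and 23.8 against 31.0 and 24.8. In WT it went from 25.5 and 19.7 to 50.9 and 40.0 CPM, in MT194 from 20.5 and 15.2 to 41.4 and 31.3, and in MT486 from 23.3 and 15.1 to 47.4 and 36.1. The groups overlapped in EV and DMT and did not in WT, MT194 and MT486. The log2 fold changes were 0.11 ± 0.29 in EV, 1.01 ± 0.29 in WT, 1.03 ± 0.29 in MT194, 1.12 ± 0.29 in MT486 and 0.12 ± 0.29 in DMT, and edgeR called none without the block (adjusted p of 0.0641 in MT486, 0.0673 in MT194 and 0.468 in WT). DESeq2 without the block called Ccl5 in MT194 (log2 fold change 1.04, adjusted p = 0.0130, with 3.55% of genes called) and MT486 (1.12, 0.00830, 2.64% of genes) and not in WT (adjusted p = 0.104). With the replicate block Ccl5 was called in WT (1.01 ± 0.10, adjusted p = 4.66e-05), MT194 (1.03 ± 0.10, 1.65e-06) and MT486 (1.13 ± 0.10, 1.05e-06). In EV and DMT the blocked values were 0.11 ± 0.10 (adjusted p = 0.398) and 0.11 ± 0.10 (0.387). Within a replicate the ratio of Cre to GFP was 2.00 to 2.38 in those 3 constructs and 1.04 to 1.13 in EV and DMT.

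Cx3cl1 (fractalkine, chr8:94772009-94782427, plus strand) had the widest range in the populations. In EV it stood at 59.5 and 89.4 CPM with Ad-GFP and at 128 and 228 with Ad-Cre-GFP, in MT194 at 45.5 and 75.5 against 84.8 and 229, in DMT at 63.0 and 98.8 against 102 and 182, in MT486 at 67.3 and 104 against 86.7 and 155, and in WT at 57.5 and 72.0 against 68.7 and 81.7. The groups were apart in EV, MT194 and DMT and overlapped in MT486 and WT. Without the block the log2 fold change in EV was 1.26 ± 0.49 (adjusted p = 0.119) and in MT194 1.38 ± 0.50 (0.159). With it Cx3cl1 was called in both, at 1.23 ± 0.21 in EV (adjusted p = 0.000599) and 1.30 ± 0.21 in MT194 (0.000871). The Cre to GFP ratio was 2.16 in replicate 1 and 2.55 in replicate 2 of EV, and 1.86 and 3.04 in MT194. When replicate 2 of EV-Cre was left out, the unblocked log2 value in EV was 0.79, and leaving out replicate 2 of MT194-Cre gave 0.49 in MT194. In DMT the blocked value was 0.79 ± 0.21 (0.0101), under the fold threshold, and in MT486 0.48 ± 0.21 (0.127) and in WT 0.23 ± 0.21 (0.576). Counted with the replicate block, 2 of 8 ligands were called in EV (9.74% of genes), 1 in WT (0.869%), 3 in MT194 (5.39%), 2 in MT486 (4.24%) and 1 in DMT (8.8%).

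Ccl2 and Ccl7 lie side by side on chromosome 11, at chr11:82035571-82037453 and chr11:82045712-82047525 on the plus strand, and encode monocyte attractants of related sequence. Ccl2 was higher with Cre than with GFP within all 10 replicate pairs, by 1.21-fold to 1.81-fold, and so was Ccl7, by 1.25-fold to 1.78-fold. How many of all genes were higher in all 10 pairs was not counted. In EV, Ccl2 stood at 45.3 and 68.0 CPM with Ad-GFP and at 80.2 and 83.7 with Ad-Cre-GFP, and Ccl7 at 25.7 and 36.4 against 45.6 and 46.3. The groups did not overlap, yet neither gene passed the test (log2 fold changes of 0.53 ± 0.33, adjusted p = 0.336, and 0.57 ± 0.26, adjusted p = 0.189). With the block their adjusted p values in EV were 0.00731 and 0.00129, with log2 fold changes of 0.57 and 0.59 that stayed under the threshold of 1. By group mean both were highest in MT486-Cre, at 83.8 and 127 CPM for Ccl2 and 56.5 and 78.1 CPM for Ccl7.

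Cxcl1 (chr5:90891241-90893115) and Cxcl5 (chr5:90759360-90761624), neutrophil attractants encoded on the plus strand of the same region, were not called in any construct, with or without the block. Cxcl5 in EV stood at 3409 and 5132 CPM with Ad-GFP and at 5064 and 6752 with Ad-Cre-GFP, and in WT at 3426 and 4129 against 2841 and 3795. The groups overlapped in each construct. Its log2 fold changes were 0.47 ± 0.52 in EV and -0.19 ± 0.52 in WT, and those of Cxcl1 0.55 ± 0.47 and -0.07 ± 0.47. With the block Cxcl1 had an adjusted p of 0.00874 in EV (0.54 ± 0.15), 0.0291 in MT194 (0.47 ± 0.15) and 0.0361 in DMT (0.42 ± 0.15), under the fold threshold, while Cxcl5 stood at 0.0835 in EV. Within a replicate, each gene was higher with Cre in 6 of 10 pairs and lower in 4, the lower ones being both replicates of WT and of MT486.

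Cxcl12 (chr6:117168535-117181367, plus strand), whose product retains stem cells and lymphocytes in tissue, took 0.972% of all reads on genes in the populations. It stood at 7516 and 10316 CPM in EV-GFP and at 9006 and 14308 in EV-Cre, with overlapping groups and a log2 fold change of 0.39 ± 0.51 (adjusted p = 0.699). The highest library was MT194-Cre replicate 2, at 20294 CPM against 7805 in MT194-Cre replicate 1. That library also held the highest Cxcl5 (8069 CPM) and Cx3cl1 (229 CPM) of the populations, together with the highest fibroblast marker sum, 57551 CPM, whose part in these values was not tested.

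The second comparison asked whether the Cre effect differed between EV and each construct, tested as an interaction at an adjusted p under 0.05. The 4 tests share the EV libraries. Without the block no ligand passed by edgeR or by DESeq2 in any of them, while 0.681% of genes passed for WT and 0.00724% for each of MT194, MT486 and DMT, in each of these 3 the gene being Nelfb. By DESeq2 the shares of genes were 3.3% for WT, 0.152% for MT194, 0.34% for MT486 and 0.00724% for DMT. Unadjusted edgeR p values under 0.05 were held by 2, 1, 1 and 0 ligands, and by 1622, 444, 715 and 159 of the 13805 genes tested. With the replicate block 3 of 8 ligands passed for WT (17.3% of genes). The Cre effect was larger in WT for Ccl5 (difference in log2 fold change 0.90 ± 0.14, adjusted p = 0.000473) and smaller for Cxcl10 (-0.55 ± 0.17, 0.0314) and Cx3cl1 (-1.003 ± 0.30, 0.0384). Ccl5 alone passed for MT194 (0.92 ± 0.14, adjusted p = 0.00568, 0.992% of genes) and MT486 (1.02 ± 0.14, 0.00246, 2.96% of genes). For DMT its difference was 0.00 ± 0.14 (0.999), and no ligand passed.

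The third comparison set the Cre populations with a construct against EV-Cre, and these comparisons again share the EV-Cre libraries. No ligand was called in WT-Cre (4.05% of genes called), MT194-Cre (0.174%), MT486-Cre (0.217%) or DMT-Cre (0.00724%) by edgeR, nor by DESeq2, which called 5.68%, 0.739%, 1.7% and 0.0145% of genes. Unadjusted edgeR p values under 0.05 were held by 3, 1, 2 and 1 ligands, and by 3268, 1326, 1676 and 447 of the 13805 genes tested. Cxcl10 was lower in WT-Cre than in EV-Cre, at 36.5 and 35.8 against 66.6 and 67.0 CPM, with an adjusted p of 0.00615 and a log2 fold change of -0.89 ± 0.16, short of the fold threshold. Cx3cl1 in WT-Cre, at 68.7 and 81.7 against 128 and 228 CPM, was called with the block (-1.18 ± 0.21, adjusted p = 0.00102, 1 of 8 ligands against 8.63% of genes). Over the alternative settings and left-out libraries its log2 value ran from -1.60 to -0.77. Against EV-Cre, Cxcl10 had log2 values of -0.38 in MT194-Cre, -0.53 in MT486-Cre and -0.38 in DMT-Cre. Ccl5 in WT-Cre had a value of 0.91 ± 0.29 (adjusted p = 0.0699), where Cxcl1, Cxcl5, Cxcl12, Ccl2 and Ccl7 had values of -0.76, -0.83, -0.64, -0.33 and -0.19.

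Other genes of the pathway were read in the Cre effect of EV, where 6.52% of all genes tested were called, so that a single call in a list of this length lies near the background. Of 32 other chemokine ligands 13 were tested, 1 rose and 1 fell. Ccl20, which draws Ccr6-bearing lymphocytes, went from 0.737 and 0.634 CPM to 2.61 and 4.85 (log2 fold change 2.43 ± 0.38, adjusted p = 0.00137), and the platelet chemokine Pf4 from 0.442 and 0.829 to 0.0901 and 0.141 (-2.41 ± 0.68, 0.0346). Ccl20 was also called in MT194 (1.82), MT486 (1.87) and DMT (2.38) and not in WT. Of 23 chemokine receptors 6 were tested and none was called in EV, and the Cxcl12-scavenging receptor Ackr3 stood at 1.10 ± 0.37 (adjusted p = 0.0749) there and was called in DMT (1.45 ± 0.38, 0.0270). Of 10 proteases that cleave or shed chemokines 8 were tested and 1 fell, Dpp4, which trims Cxcl10 and Cxcl12, from 4.38 and 6.05 to 1.04 and 1.70 CPM (-1.93 ± 0.27, 0.000578).

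Among genes of NF-kappaB signalling, 1 of 20 tested subunits, inhibitors and kinases was called in EV, against 6.52% of all genes. Tnfaip3, which encodes the inhibitor A20, rose from 62.4 and 43.3 to 201 and 180 CPM (log2 fold change 1.85 ± 0.19, adjusted p = 7.27e-05). Of 20 NF-kappaB-dependent genes other than chemokines, 4 rose and 2 fell. Il6 went from 51.7 and 51.7 to 180 and 285 CPM (2.17 ± 0.31), Ptgs2 from 59.8 and 86.2 to 354 and 405 (2.38 ± 0.35), and Csf1 (1.78 ± 0.51) and Csf2 (2.09 ± 0.36), growth factors of macrophages and granulocytes, rose as well. Vcam1 (-1.77 ± 0.36) and Tnfaip2 (-1.27 ± 0.22) fell. The median over the 20 genes was 0.06 and that over all genes tested 0.00. In WT no gene of these lists was called by edgeR (0.0217% of genes, as above), and Il6 stood at 49.0 and 46.0 CPM with Ad-GFP and 45.7 and 51.1 with Ad-Cre-GFP.

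The counts of the remaining lists stand against the same 6.52% of genes and are no result about the lists. None of 16 tested inflammatory inducers and receptors was called in EV, and 1 of 19 interferon pathway transducers was, Irf7, from 27.3 and 20.7 to 56.8 and 54.9 CPM (log2 fold change 1.22 ± 0.30, adjusted p = 0.0195). Irf7 was called in MT194 (1.35) and DMT (1.03) as well. Of the marker lists, 1 of 14 tested fibroblast markers fell, S100a4 (-1.47 ± 0.24), and 1 of 6 leukocyte markers rose, Fcgr1, at no more than 1.18 CPM in EV-Cre. The summed leukocyte markers, nearly all of them Cd14, stood at 357 and 449 CPM in EV-GFP and at 253 and 264 in EV-Cre, and Cd14 did not pass the test (-0.68 ± 0.29, adjusted p = 0.155). The sums were lower with Cre in every replicate pair of the 5 constructs except MT194 replicate 2, for example 405 and 430 against 241 and 288 CPM in MT486 and 396 and 433 against 356 and 412 in WT, and their part in the ligands' values was not tested. None of 3 endothelial and 2 epithelial markers tested was called in EV. Krt19, an epithelial keratin, was called in DMT (1.61 ± 0.41, adjusted p = 0.0250), from 2.13 and 1.26 to 5.50 and 4.74 CPM. The epithelial sum was higher with Cre in every replicate pair except MT194 replicate 2, at 2.06 and 2.00 CPM in EV-GFP against 5.001 and 3.01 in EV-Cre, and its part in the ligands' values was not tested.

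Some ligands varied together across the libraries. Cxcl1 and Cxcl5 had a Pearson's r of 0.96 over the 20 populations, 0.82 within replicate 1 and 0.95 within replicate 2 (10 libraries each). For Ccl2 and Ccl7 it was 0.96, 0.97 and 0.95, and for Cxcl5 and Cxcl12 0.93, 0.69 and 0.95. These points share constructs, replicates and normalisation, and the values describe them only. Ccl5 and Cxcl5 had an r of -0.40, with -0.34 and 0.02 within the replicates. Over the 15 clones Cxcl1 with Cxcl5 had 0.98 and Ccl2 with Ccl7 0.94, and 0.97 and 0.92 without the 2 clones farthest from the median. Ccl5 with Cxcl5, negative over the populations, had 0.91 over the clones and 0.80 without 2 such clones. Cxcl12 had a negative r with each other ligand there, from -0.66 with Cxcl10 to -0.12 with Cx3cl1. With Cxcl5 it was -0.59, which became -0.24 without 2 such clones.

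**Figure D4:**
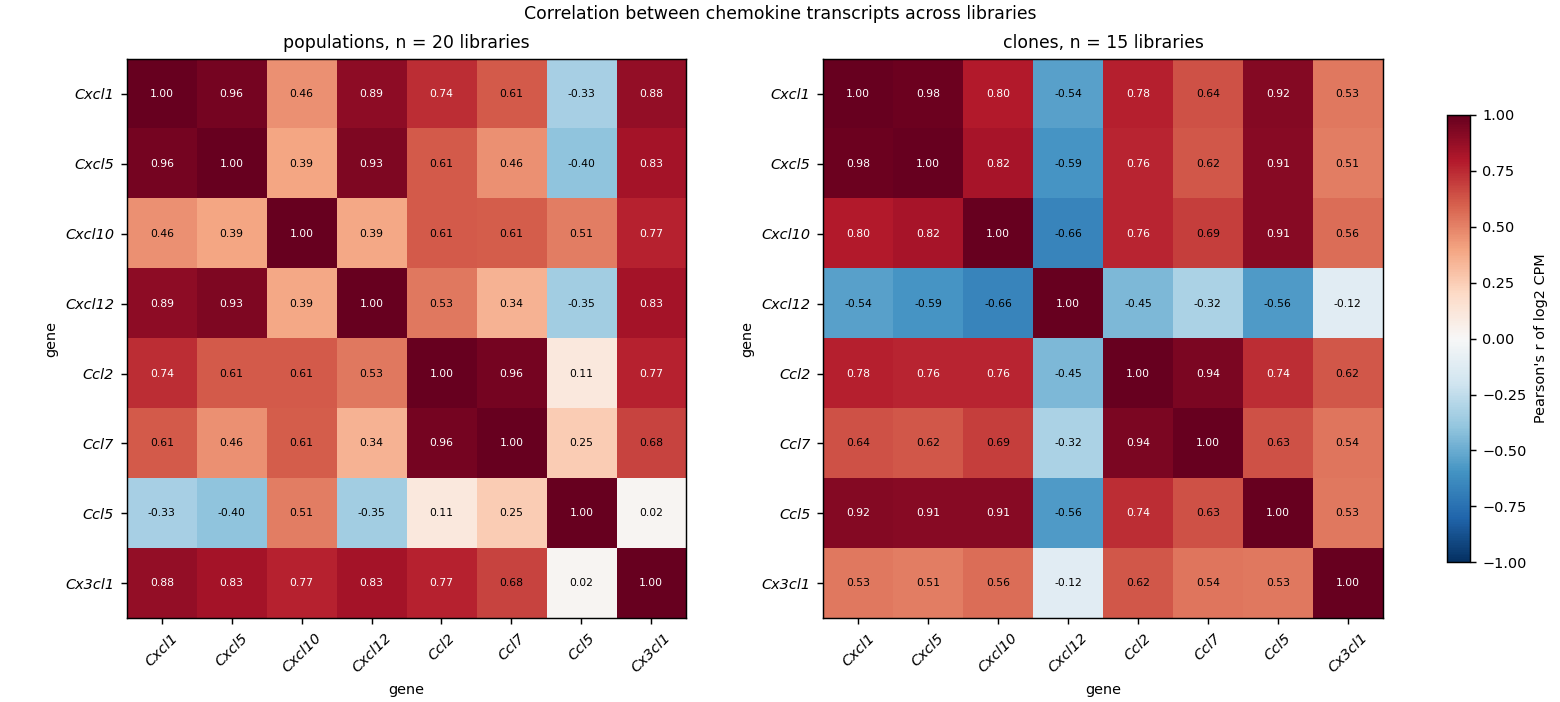
Pearson's r of log2 CPM between the ligands over 20 populations (left) and 15 clones (right), from -1 (blue) to 1 (red). Cxcl1 with Cxcl5 and Ccl2 with Ccl7 lay at 0.94 or above in both panels, and Cxcl12 turned from 0.93 with Cxcl5 in the populations to -0.59 in the clones.

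Among the 9439 genes that averaged 10 CPM or more, those most like each ligand over the 20 populations were as follows. Cxcl10 ran closest to Adar, an interferon-inducible RNA editing enzyme (r = 0.97), then Sipa1l1 (0.95) and Actn1 (0.94). Ccl5 ran closest to Samd9l (0.88), Asrgl1 (0.87) and Ifit2 (0.87), of which Samd9l and Ifit2 are interferon-inducible. Cx3cl1 ran with Tmem45a (0.97), Unc5b (0.96) and Csf1 (0.96), and Cxcl12 with Timp2, a metalloproteinase inhibitor (0.99), Serinc3 (0.97) and Tmem260 (0.97). For Cxcl1 these were Ece1 (0.97), Ecm1 (0.96) and M6pr (0.96), for Cxcl5 Tmem260 (0.97), Cxcl1 and Lrpap1 (0.96), for Ccl2 Ccl7, Sema3c (0.94) and Ptpre (0.92), and for Ccl7 Ccl2, Ehbp1l1 (0.92) and Sema3c (0.89). The replicate number moves many genes of the 20 libraries at once and enters these values.

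All ligands but Cx3cl1 spread more widely over the clones than over the populations. From the lowest to the highest of 15 clones Cxcl5 differed 1008-fold, Ccl5 705-fold, Ccl7 227-fold and Cxcl1 140-fold, while Cx3cl1 differed 4.38-fold, less than its 5.04-fold in the populations. Δ-C60 clone 3 held the lowest value of every ligand except Cxcl12, with Cxcl5 at 4.34 CPM, Ccl5 at 0.247 CPM (5 reads) and Cxcl10 at 2.76 CPM, and the highest Cxcl12, at 5016 CPM. That clone also held the highest epithelial and endothelial marker sums of the clones (102 and 5.38 CPM) and the lowest leukocyte sum (16.4 CPM). The part of these sums in its values was not tested. MT194 clone 2 held the highest Cxcl1 (1096 CPM), Cxcl5 (4379), Ccl5 (174) and Cx3cl1 (681). It also held the highest fibroblast and leukocyte marker sums of the clones (30381 and 123 CPM), whose part in its values was not tested. Δ-C60 clone 2 held the highest Ccl2 (472 CPM), Ccl7 (615) and Cxcl10 (119).

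**Figure D5:**
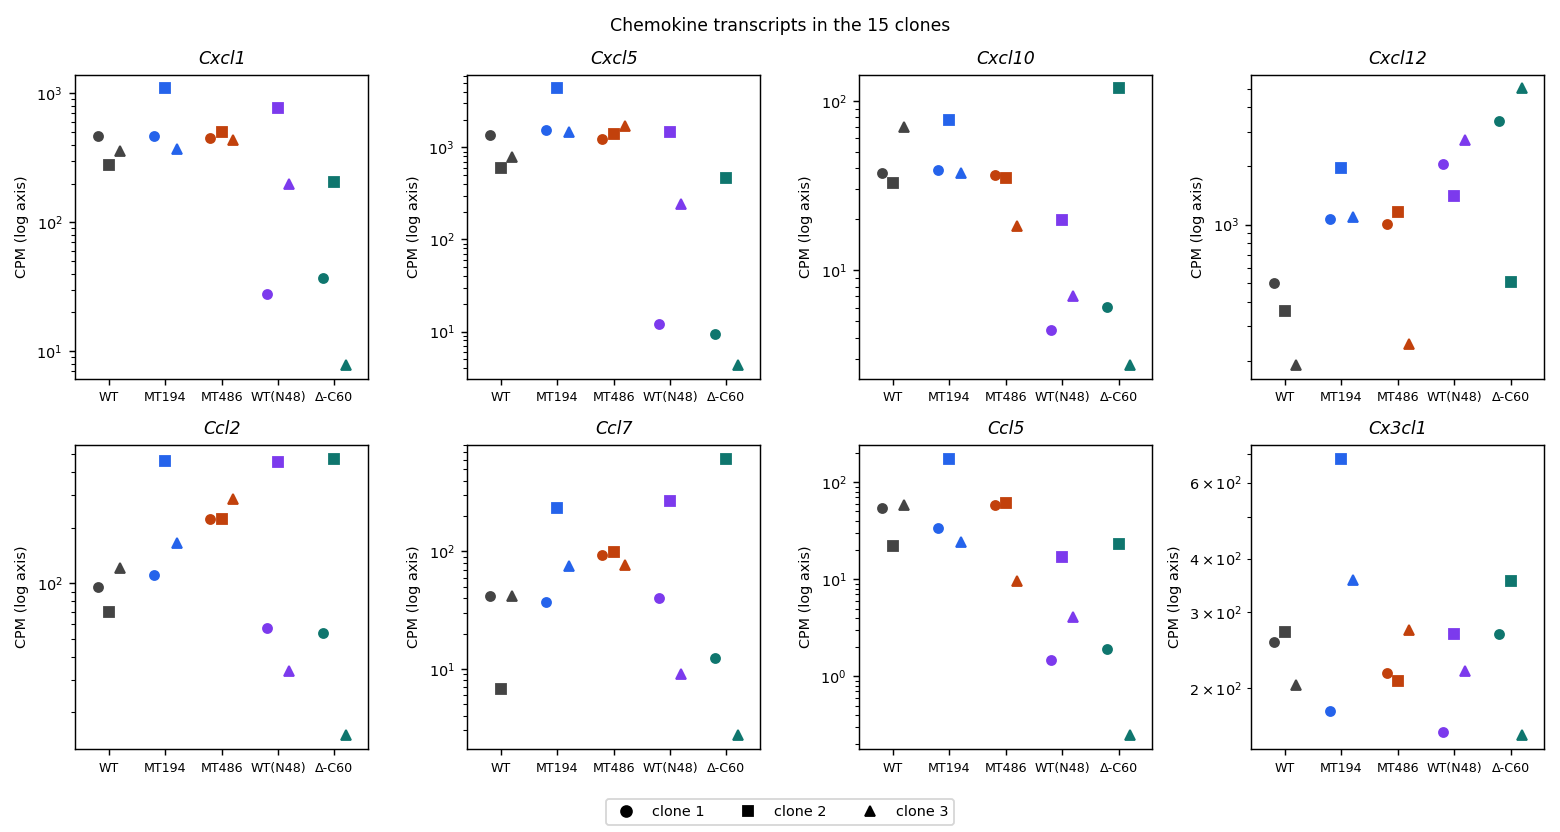
CPM of the 8 ligands in each of the 15 clones (log axes) by construct; marker shapes are the clone numbers, which do not pair clones between constructs. The 3 Δ-C60 clones span Cxcl5 from 4.34 to 465 CPM, and Cxcl12 in the 3 WT clones lies between 190.1 and 499.5 CPM.

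The clones of some constructs differed widely from each other, and those of MT486 were closer for Cxcl5. Cxcl5 stood at 1544, 4379 and 1466 CPM in the MT194 clones, 1224, 1409.6 and 1719 in MT486, 1370.1, 599.9 and 795 in WT, 12.02, 1464 and 242 in WT(N48), and 9.51, 465 and 4.34 in Δ-C60. The lowest MT194, MT486 and WT clone for Cxcl5 was WT clone 2, at 599.9 CPM. The levels of Cxcl10 were 39.0, 76.7 and 37.5 CPM in MT194, 36.5, 34.98 and 18.3 in MT486, 37.7, 32.9 and 69.8 in WT, 4.46, 19.9 and 7.08 in WT(N48), and 6.06, 119 and 2.76 in Δ-C60. Ccl5 stood at 34.1, 174 and 24.2 CPM in MT194, 58.4, 60.4 and 9.62 in MT486, 54.3, 22.2 and 58.6 in WT, 1.47, 16.9 and 4.13 in WT(N48), and 1.93, 22.9 and 0.247 in Δ-C60. For Ccl5 and for Cxcl10 the WT(N48) clones lay below all MT194 and all WT clones, and MT194 and WT overlapped. For Cxcl5, WT(N48) clone 2 (1464 CPM) stood above all WT clones.

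The mutant clones were compared with the WT(N48) clones, and the lentiviral clones and the WT(N48) clones with the WT clones. MT194 and MT486 differ from WT(N48), and WT(N48) from WT, in vector as well, which cannot be told apart from the NELFB they carry. No ligand was called by edgeR fitted on all 15 clones in any of the 6 comparisons. Among all genes 3.24% were called in MT194 against WT(N48), 0.272% in MT486 against WT(N48), 0% in Δ-C60 against WT(N48), 1.47% in MT194 against WT, 0% in MT486 against WT and 1.47% in WT(N48) against WT. At an unadjusted edgeR p under 0.05 the ligands numbered 2, 0, 0, 1, 0 and 1, against 3407, 1991, 1540, 2796, 1176 and 2775 of the 13223 genes tested. DESeq2 called 0, 0, 0, 1, 0 and 1 ligands, against 6.67%, 2.92%, 1.08%, 3.68%, 0.843% and 4.93% of genes. For the comparisons with no gene called by edgeR, 1540 (Δ-C60) and 1176 (MT486 against WT) genes had an unadjusted p under 0.05, and DESeq2 called 142 and 111. Against WT(N48), the log2 fold change of Ccl5 was 3.37 ± 1.35 in MT194 (adjusted p = 0.140), and that of Cxcl10 2.29 ± 1.07 (0.198). Without MT194 clone 2 the Ccl5 value was 1.96. In Δ-C60, 5 of 8 ligands had values above 0, among them Cxcl10 (2.02 ± 1.06, adjusted p = 0.488) and Ccl7 (0.98 ± 1.51, 0.854). Over the alternative settings and left-out clones, Cxcl10 ran from -1.24 to 2.87 and Ccl7 from -3.80 to 3.09. Cxcl1 and Cxcl5 had values of -1.99 ± 1.07 and -1.84 ± 1.503 (0.504 and 0.681), and single clones moved both. Without WT(N48) clone 2 they were -0.42 and 0.32, and without Δ-C60 clone 2 -3.89 and -6.36, none of them past the test.

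By group mean Cxcl12 was lowest in the WT clones, with no difference called by edgeR when fitted on all clones together. It stood at 499.5, 359 and 190.1 CPM in the WT clones, 1065, 1953 and 1090.1 in MT194, 1001, 1161 and 244 in MT486, 2039, 1406 and 2737 in WT(N48), and 3419, 509.5 and 5016 in Δ-C60. The WT clones overlapped with MT486 and lay below all MT194 and WT(N48) clones. Their fibroblast marker sums were also the lowest, at most 13843 CPM against at least 14633 CPM in the other clones. The part of these sums in the Cxcl12 values was not tested. The log2 fold change against WT was 1.97 ± 0.72 in MT194 (edgeR adjusted p = 0.140) and 2.56 ± 0.74 in WT(N48) (0.0837), and neither passed. DESeq2 called both (adjusted p of 0.0242 and 0.00198, with 3.68% and 4.93% of genes called), as did edgeR fitted on only the groups compared (0.0443 and 0.0321, with 2.48% and 2.57% of genes). Without WT clones 1 and 3, whose Nelfb was low, 1 WT clone remained and was assumed to vary like the other groups. The edgeR log2 values of Cxcl12 against it were 1.92 in MT194, 2.50 in WT(N48) and 1.17 in MT486. With 1 clone on that side, only these effect sizes are given. As in all bulk libraries, less RNA per cell and fewer expressing cells cannot be told apart in any of these values.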

How the data were processed

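Counts of 50-base reads per gene were deposited for 35 libraries. The authors made these counts by aligning TruSeq stranded libraries to mm10 with bowtie2, dropping alignments with a mapping quality under 30 and counting on genes with HTSeq. The strand setting is not given in the sources used here, and no normalization was applied. Reads on no gene made up 11.7% to 21.3% (populations) and 9.14% to 12.0% (clones) of each library and stayed out of library sizes. From the counts, edgeR 4.0.16 (R 4.3.3) was run on the 20 populations and the 15 clones separately, with filterByExpr (13805 and 13223 genes kept), TMM, 1 mean per group and robust quasi-likelihood dispersions. Benjamini-Hochberg adjustment covered all genes tested. Calls needed an adjusted p under 0.05 together with a log2 fold change beyond 1 in either direction, interactions the adjusted p alone. The SE of a log2 fold change is its size over the square root of F.

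Replicate numbers paired the populations. Deviations from group means of libraries with the same number correlated in 45 of 45 group pairs (r from 0.52 to 0.82, median 0.69), and the study describes independent experiments. P-values without the block measure the spread between the 2 experiments or between clones. With the block, the shift shared by all groups of an experiment is taken out. Blocked p-values of the populations rest on the remaining spread, pooled over the 10 groups, and do not cover that shift. Alternatives were DESeq2 1.42.0, its size factors, no filter, only the groups compared, the replicate block, another fold threshold and leaving out libraries. Both tools were tested on simulated counts, and no value from that test is given here. Members and gene lists were chosen with earlier results of these data known. The named genes are the members, Nelfb, up to 4 called genes of each list per direction, the leading and absent markers and the 3 genes most like each member by the correlation of log2 CPM. Other list genes are named with their values beside these. Positions and exon lengths come from GENCODE for GRCm38 and promoter windows from RefSeq (GRCm38.p6).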

Additional observations from a re-analysis of the deposited data

Results flagged for a closer look

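With the replicate number as a block, the Cre effect of 3 ligands differed between constructs by the interaction test. For Ccl5 the effect was larger than in EV by 0.90 (log2) in WT, 0.92 in MT194 and 1.02 in MT486, with adjusted p of 0.000473, 0.00568 and 0.00246 (edgeR), while without the block the adjusted p values were 0.408, 1.00 and 0.922. For Cxcl10 and Cx3cl1 the effect was smaller in WT than in EV, by -0.55 and -1.003 (adjusted p of 0.0314 and 0.0384, against 0.351 and 0.649 without the block). Over the alternative settings and left-out libraries the Cx3cl1 difference ran from -1.39 to -0.57. With the block, 17.3% of all genes passed for WT, 0.992% for MT194 and 2.96% for MT486. These tests share the EV libraries.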

How the results depend on the processing

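The counts of ligands called were 0 or 1 of 8 in each comparison, so a count that stayed the same says little about stability. With the replicate block, which pairs the populations, the counts of ligands called became 2 in EV, 1 in WT, 3 in MT194 and 2 in MT486 for the Cre effect, 3, 1 and 1 for the interactions of WT, MT194 and MT486 with EV, and 1 for WT-Cre against EV-Cre, and no other count changed. In the clones the number only names a sample (4 of 30 pairs of groups and numbers had a correlation over 0.1), and the block changed no call of a ligand while moving the genes called from 429 to 254 in MT194 and from 36 to 19 in MT486 against WT(N48), and the share called against WT from 1.47% to 0.31% in MT194 and to 0.635% in WT(N48). DESeq2 called 2 ligands in MT194 and 2 in MT486 (Ccl5 added, adjusted p of 0.0130 and 0.00830), and 1 in MT194 and 1 in WT(N48) clones against WT clones (Cxcl12). With only the groups compared, edgeR called 0 in MT194 and 0 in MT486 (Cxcl10 adjusted p of 0.130 and 0.117, with fewer libraries to estimate the spread and 0% and 0.0381% of all genes called), and 1 ligand, Cxcl12, in MT194 and 1 in WT(N48) clones against WT clones (0.0443 and 0.0321). With a fold threshold of 0.5, Cxcl10 was called in WT-Cre against EV-Cre, giving 1. Leaving out a library changed no count of ligands called, and the called log2 fold change of Cxcl10 in EV ran from 1.26 to 1.47 over its alternatives. No ligand that was called reversed its direction.

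Each library held at least 17969149 reads on genes. The fewest reads of a ligand were the 5 of Ccl5 in Δ-C60 clone 3, a library of 23946987 reads on genes. Deletion of Nelfb, Cre itself and the Cre virus cannot be told apart in EV alone.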
